A study of Homo sapiens with 18 samples.

Results

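Interferon-stimulated genes were followed in A549 cells, an established line of human lung adenocarcinoma epithelium, after a short exposure to Ludox amorphous silica nanoparticles (NPs). The list held 43 gene symbols, and its members were all probes other than control spots that the scanner files name with one of those symbols. It was selected on earlier results of the same arrays, among them a higher IFIT1 ratio after AS30 NPs at 22 h than at 3 h. The AS30 values below are therefore a description. Calls after AS30, and counts at an unadjusted p, come from the same fit as those of SM30 and are not read as evidence. P-values of single genes are given only for SM30 NPs, whose arrays share neither slides nor controls with AS30. The SM30 results were known too when the list was made, so these p-values are not independent evidence, and their standard errors come from a fit that also holds the AS30 ratios. Of the 43 members 42 had a probe, out of 30484 gene names on the array, and IRF9 had none under that symbol. In 34 members a probe had valid spots, significantly above their local background, on enough arrays (at most 33% missing), and 8 members were left without a measured level.

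Gene expression came from 18 Agilent arrays with a single dye, which form 6 groups of biological replicates lettered A, B and C. Cells were kept for 2 h in medium without serum that held 0.02 mg/mL SM30 NPs (9 nm in diameter) or AS30 NPs (18 nm in diameter). They then recovered in complete medium with serum, for 3 h after SM30 and for 3 h or 22 h after AS30. Each of these groups had its own control group, which went through every step, serum withdrawal included, without NPs. All samples came from a single cell line, nothing in the labels says from how many separate cultures, and p-values therefore measure only the spread between these samples.

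Interferons are secreted proteins that cells release when they sense viral nucleic acid or certain other danger signals. Type I and type III interferons bind receptors at the cell surface, the kinases JAK1 and TYK2 phosphorylate STAT proteins, and STAT2 enters the complex ISGF3 together with IRF9. ISGF3 binds a DNA element named ISRE in the promoters of interferon-stimulated genes, while type II interferon acts mainly through a second element named GAS. Airway epithelial cells use this response to restrict virus replication, and IRF1 and IRF3 can also switch on some of the same genes without secreted interferon.

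The promoters of the members were searched for both elements, because they are the sequences through which the pathway is known to reach these genes. A RefSeq promoter of 300 bases, 250 before and 50 after the transcript start (build GRCh38.p14), was at hand for 34 of the 43 members, and the members without one were IFIT2, MX2, OAS2, OASL, IRF7, USP18, TRIM22, GBP2 and IFITM2. The ISRE core GAAANNGAAA was found on either strand in 22 of the 34 promoters (64.7%), beside 3.57% of 35116 promoters of all genes. The GAS core TTCNNNGAA was found in 8 of the 34 (23.5%), beside 7.66% of all promoters. The upstream 250 bases are shown, 5′ to 3′ along each gene, for 3 members of the IFIT family, for ISG20 and for IFI16 and STAT2, with every ISRE core match in capitals, and a match on the opposite strand reads as the reverse complement of the core.
IFIT1, chr10:89392373-89392622 (+ strand): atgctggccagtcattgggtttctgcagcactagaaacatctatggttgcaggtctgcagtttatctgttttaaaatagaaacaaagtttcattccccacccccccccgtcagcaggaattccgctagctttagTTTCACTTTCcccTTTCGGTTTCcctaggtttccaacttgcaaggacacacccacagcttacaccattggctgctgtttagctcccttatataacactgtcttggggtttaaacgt
IFIT3, chr10:89327747-89327996 (+ strand): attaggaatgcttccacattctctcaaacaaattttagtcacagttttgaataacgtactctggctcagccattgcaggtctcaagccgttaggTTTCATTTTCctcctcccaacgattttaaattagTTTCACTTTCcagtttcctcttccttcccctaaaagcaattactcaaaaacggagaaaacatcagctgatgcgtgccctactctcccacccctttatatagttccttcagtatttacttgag
IFIT5, chr10:89414318-89414567 (+ strand): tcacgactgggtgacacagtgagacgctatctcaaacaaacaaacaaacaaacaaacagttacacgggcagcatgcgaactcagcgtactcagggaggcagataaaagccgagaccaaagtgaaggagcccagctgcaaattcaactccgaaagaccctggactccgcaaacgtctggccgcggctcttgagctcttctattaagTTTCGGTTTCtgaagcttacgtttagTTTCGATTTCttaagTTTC
ISG20, chr15:88638766-88639015 (+ strand): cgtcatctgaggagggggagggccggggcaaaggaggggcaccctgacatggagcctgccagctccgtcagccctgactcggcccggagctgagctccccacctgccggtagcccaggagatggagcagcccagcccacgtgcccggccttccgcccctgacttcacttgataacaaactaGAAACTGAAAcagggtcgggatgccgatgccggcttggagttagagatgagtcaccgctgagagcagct
IFI16, chr1:159008741-159008990 (+ strand): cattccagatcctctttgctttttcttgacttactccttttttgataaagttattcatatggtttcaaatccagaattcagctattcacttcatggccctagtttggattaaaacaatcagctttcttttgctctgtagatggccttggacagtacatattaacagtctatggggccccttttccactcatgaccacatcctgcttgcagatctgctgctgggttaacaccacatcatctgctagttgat
STAT2, chr12:56360108-56360357 (- strand): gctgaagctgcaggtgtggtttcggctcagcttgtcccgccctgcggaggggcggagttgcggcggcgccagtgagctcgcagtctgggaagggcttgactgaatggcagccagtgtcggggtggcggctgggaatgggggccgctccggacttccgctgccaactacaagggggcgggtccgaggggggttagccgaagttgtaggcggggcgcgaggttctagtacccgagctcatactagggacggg
IFIT1 held 2 matches, which start 116 and 103 bases before the transcript start, and IFIT3 held 2, at 156 and 122 bases. IFIT5 held 3 matches, at 45, 19 and 4 bases before the start, so that the last of them runs past the end of the printed sequence. ISG20 held 1 match, 69 bases before the start. The 12 promoters without a match of these letters in this window were those of IFI16, STAT2, IFI30, IFI35, OAS1, IRF1, IRF9, HERC6, RSAD2, XAF1, PSMB9 and DDX58, the gene of the RNA sensor RIG-I.

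Levels are log2 normalized signals, and a change is the log2 ratio of a treated array over the control array of the same letter. Each SE of a ratio comes from the limma fit, which estimates the spread over all exposures together. It is therefore not the spread of the pairs of a single exposure. A spot is called well above background where the scanner software flagged it so. The share of such spots was 51.9% to 72.4% over the 18 arrays, and it differed between groups. It was 65.5% to 69.9% in SM30 controls and 69.0% to 72.4% after SM30. For AS30 it was 52.4% to 61.9% in controls and 62.5% to 67.1% after exposure at 3 h, and 51.9% to 58.4% in controls and 56.9% to 67.0% after exposure at 22 h. Of the 42 members with a probe, 25, 24 and 28 were well above background in the AS30 controls A, B and C at 22 h, and 36, 30 and 32 in the treated arrays. The part of this gap in the ratios of dim members was not tested. The 18 arrays lay on 5 slides. The controls and exposed samples of AS30 at 3 h lay on different slides, so no array of these groups could be compared within a slide.

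The epithelial markers CDH1, KRT8, KRT18, KRT19 and TACSTD1 (the gene of EpCAM) were well above background on all 18 arrays, which matched the label. At 22 h after AS30 the KRT19 ratio was 1.21 (called) and that of CDH1 -1.46. Of 7 leukocyte markers, PTPRC (CD45), CD3D and MS4A1 were nowhere well above background, while CD68, CD14, CD3E and ITGAM were measured. The summed signal of this list was 923 to 976 in SM30 controls and 1337 to 1401 after SM30, 910.2 to 1161 and 1759 to 1969 for AS30 at 3 h, and 1125 to 1390 and 1767 to 3716 for AS30 at 22 h. CD68, which epithelial cells also express, was the brightest of them, with ratios of 0.97 at 3 h after either NP and 1.67 at 22 h (called). At 22 h CD14 was at -0.017, CD3E at -0.25 and ITGAM at 0.32. The ratios of CD14, CD3E and ITGAM were 0.62, 0.62 and 0.54 at 3 h after AS30, and -0.24, -0.56 and 0.38 after SM30. Of 5 fibroblast markers COL1A2 and COL3A1 were nowhere well above background, while COL1A1 was so on all 18 arrays, LUM on 6 and DCN on 1. Of 4 endothelial markers PECAM1 was nowhere well above background, while VWF was so on 7 arrays, KDR on 2 and CDH5 on 1. LUM gave a single ratio at 22 h after AS30, of -3.43 in pair C. Over the 18 arrays the summed signals of the fibroblast and endothelial lists were 95.7 to 363 and 35.6 to 119. The part of these lists in the results below was not tested.

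The IFIT genes were among the members that stood highest at 22 h after AS30. Their proteins bind foreign RNA and block its translation, and the genes lie side by side on chromosome 10. IFIT1, which recognises RNA without a normal cap, was lower than its controls at 3 h after either NP and higher at 22 h after AS30. In SM30 controls A, B and C the IFIT1 level was 7.31, 7.47 and 7.61, and after SM30 it was 6.22, 6.71 and 6.96. The groups did not overlap, and IFIT1 fell by 0.83 on the log2 scale (SE 0.19, 95% interval -1.27 to -0.39, limma, adjusted p = 0.0371), lower in 3 of 3 pairs. As these are bulk samples, fewer cells with the transcript and less of it in each cell cannot be told apart.

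After AS30 at 3 h the IFIT1 level was 6.22, 5.52 and 5.96, beside 6.73, 6.94 and 6.72 in the controls. Every treated array lay below every control array, and the mean log2 ratio was -0.90 (SE 0.19, n = 3). At 22 h the level was 9.91, 8.85 and 9.55 after AS30, beside 8.25, 7.61 and 7.75 in the controls. Here every treated array lay above every control array, with a mean log2 ratio of 1.56 (SE 0.19, n = 3). The controls themselves were 1.07 higher on the log2 scale at 22 h than at 3 h, and the treated cells 3.53 higher. The treated arrays of these times lay on different slides. Control A at 22 h, at 8.25, shared its slide with the 3 h controls, and controls B and C at 22 h did not.

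IFIT2, another RNA-binding member, was at 6.80, 7.10 and 6.78 in the 22 h controls and at 9.50, 7.94 and 9.18 after AS30. Treated and control arrays did not overlap, and replicate B was the lowest of the treated arrays. The log2 ratios were 2.70, 0.84 and 2.40, with a mean of 1.98 (SE 0.32, n = 3). At 3 h the IFIT2 ratio was 0.55 (SE 0.32) after AS30 and 0.50 (SE 0.32) after SM30, and the latter did not pass the test (limma, adjusted p = 0.368, 95% interval -0.23 to 1.24).

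IFIT3, the partner that stabilises IFIT1, was at 5.10, 5.36 and 4.53 in the 22 h controls, none of them well above background, and at 7.65, 5.87 and 7.07 after AS30. Again there was no overlap. By a bound on the difference of group means, not on each pair, IFIT3 was at least 1.77-fold higher after AS30. With all spots kept, the mean of the exposed arrays was set against that of the controls. Each control array counted with its own signal or the dimmest signal still well above background, whichever was higher. The 3 ratios were 2.55, 0.52 and 2.54, and replicate B again stood below the others. At 3 h the IFIT3 ratio was 0.62 (SE 0.38) after SM30 (limma, adjusted p = 0.361) and 0.14 (SE 0.47) after AS30, where 2 of 3 pairs gave a ratio.

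IFIT5, which binds RNA ends, moved least of the 4. It was at 9.30, 9.30 and 9.17 in the 22 h controls and at 9.50, 9.65 and 9.66 after AS30. Even here the groups did not overlap, but the mean log2 ratio was 0.35 (SE 0.17), a small change beside its relatives. A second IFIT5 probe gave 0.27 (SE 0.13). After SM30 the IFIT5 ratio was -0.11 (SE 0.17, limma, adjusted p = 0.732).

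**Figure D1:**
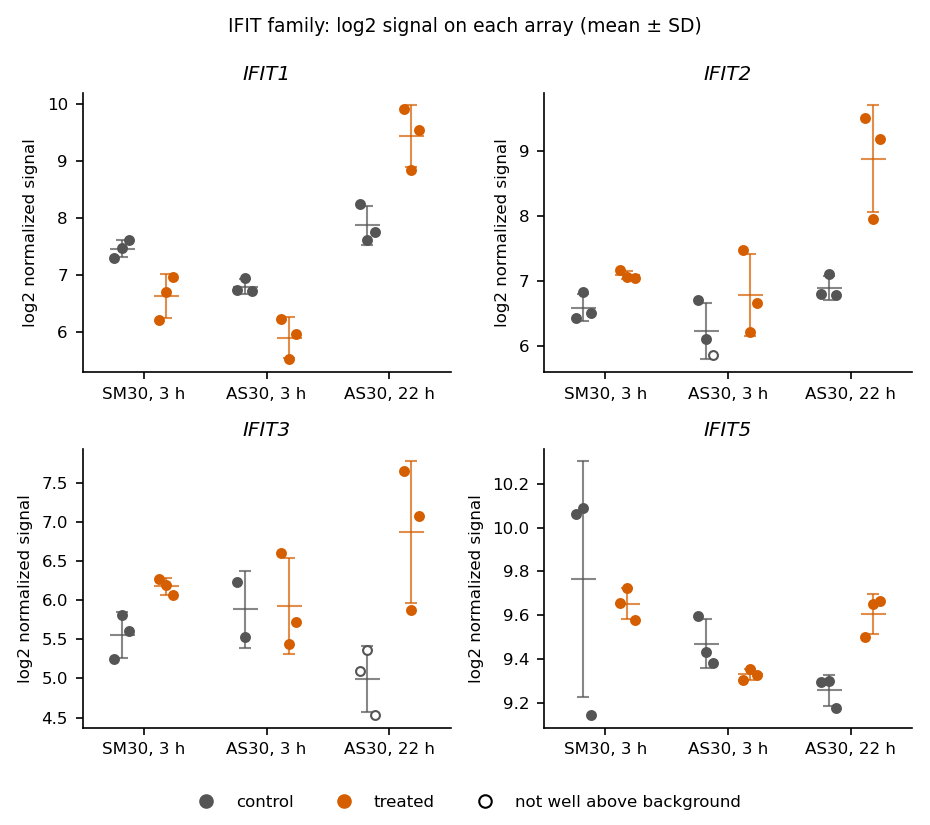
Log2 normalized signal (y axis) of IFIT1, IFIT2, IFIT3 and IFIT5 on each array, by exposure (x axis), with control arrays in grey, treated arrays in orange, open points where the probe was not well above background, and bars for the mean ± SD. IFIT1 lay below its controls in both 3 h exposures and above them at 22 h, where its treated arrays reached 9.91, while IFIT5 stayed between 9.14 and 10.09.

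In the SM30 comparison few members passed the threshold. Among all probes 4.35% were called higher and 3.13% lower, at an adjusted p under 0.05. Of the 34 measured members 2 rose (5.88%) and 2 fell (5.88%), shares near those backgrounds, and the median log2 ratio of the members was 0.10, beside -0.05 over 28664 probes. The members that rose were ISG20 and IFI16, and those that fell were USP18 and IFIT1. In 15 of the 33 members with 3 ratios (45.5%) all pairs were higher, beside 24.4% of probes, and in 5 (15.2%) all pairs were lower, beside 32.8% of probes.

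ISG20, an exonuclease that degrades RNA and DNA ends, was at 12.77, 12.81 and 13.07 in SM30 controls and at 14.26, 14.32 and 14.34 after SM30. All treated arrays lay above the controls, and ISG20 rose by 1.43 (SE 0.28, 95% interval 0.80 to 2.06, limma, adjusted p = 0.0214), a 2.69-fold change. After AS30 at 3 h it was at 13.97, 14.91 and 14.29, beside 12.36, 12.43 and 13.46 in the controls. No treated array reached down to the controls there either, and the mean log2 ratio was 1.64 (SE 0.28). At 22 h the ISG20 ratio was 0.77 (SE 0.28), with all 3 pairs higher.

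IFI16, a sensor of DNA in the nucleus and cytosol, was at 6.99, 6.92 and 6.83 in SM30 controls and at 7.99, 8.24 and 8.01 after SM30. The groups did not overlap, and IFI16 rose by 1.17 (SE 0.29, limma, adjusted p = 0.0485). A second IFI16 probe gave 0.67 (SE 0.33, limma, adjusted p = 0.242), so the probes differ on the call, and the mean over both was not called either (0.92, adjusted p = 0.0962). The AS30 ratios of IFI16 were 0.71, 0.66 and 0.28 at 3 h and 1.99, 0.16 and 1.51 at 22 h. All 6 lay above 0, and replicate B at 22 h was again the lowest.

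USP18 removes the modifier ISG15 from proteins and also shuts off signalling at the type I receptor. It was at 11.03, 11.06 and 11.31 in SM30 controls and at 10.06, 10.21 and 10.24 after SM30. Every treated array lay below every control, and USP18 fell by 0.96 (SE 0.15, 95% interval -1.31 to -0.62, limma, adjusted p = 0.00995). A second USP18 probe fell by 0.84 (SE 0.12, limma, adjusted p = 0.00655). After AS30 at 3 h the USP18 ratios were -0.76, -1.22 and -0.51, all below 0, and at 22 h they were -0.36, -0.16 and 0.08. USP41 is a near-identical copy of this gene, so the signal cannot be ascribed to USP18 alone.

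Leaving out any of the 3 SM30 pairs left 2 ratios in that group, and each of these 4 calls was then lost (limma, adjusted p = 0.0592 to 0.212), with the log2 ratios between 1.38 and 1.50 for ISG20, 1.09 and 1.25 for IFI16, -1.02 and -0.91 for USP18 and -0.92 and -0.70 for IFIT1. With normexp background correction IFIT1 moved to -0.25 and IFI16 to 0.46, and both calls were lost (adjusted p = 0.0515 and 0.0884), while those of ISG20 and USP18 were kept. The count of members that rose was 5 without the AS30 22 h pair B and 1 without the AS30 3 h pair A or B. Of all probes, 7.96%, 5.43% and 7.12% were then called in either direction. On the slide that held all 3 SM30 controls and treated sample A, the log2 differences were 1.38 for ISG20, 1.07 for IFI16, -1.07 for USP18 and -1.24 for IFIT1, and the median of 33 members was -0.04, with 15 above 0. All these differences share the single treated array, and no median over all probes was computed for it.

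Among the members that did not pass in the SM30 test, OASL, an OAS-like protein that binds RNA and enhances RIG-I signalling, had ratios of 0.84, 1.37 and 1.09 (limma, adjusted p = 0.0865). GBP2, a guanylate-binding GTPase, had 0.75, 0.78 and 0.45 (adjusted p = 0.0583), and the transcription factor IRF7 had 0.68, 0.62 and 0.52 (adjusted p = 0.0873). All 3 were higher in every pair. DDX58 was at 0.60 (SE 0.20) and IRF1, a transcription factor that can drive several of these genes by itself, at 0.61 (SE 0.22). IFITM2, which blocks the entry of enveloped viruses, had ratios of -0.05, -1.25 and 0.01, so its mean of -0.43 rested on 1 pair. The IFITM genes are close copies of each other, and their probes may share signal. OAS3, an oligoadenylate synthetase, was at 0.09 (SE 0.14), and ISG15, the ubiquitin-like modifier itself, at 0.23 (SE 0.26). EIF2AK2 (PKR, a kinase activated by double-stranded RNA) was at -0.03 (SE 0.15), and its second probe at -0.48 (SE 0.25, limma, adjusted p = 0.265).

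**Figure D2:**
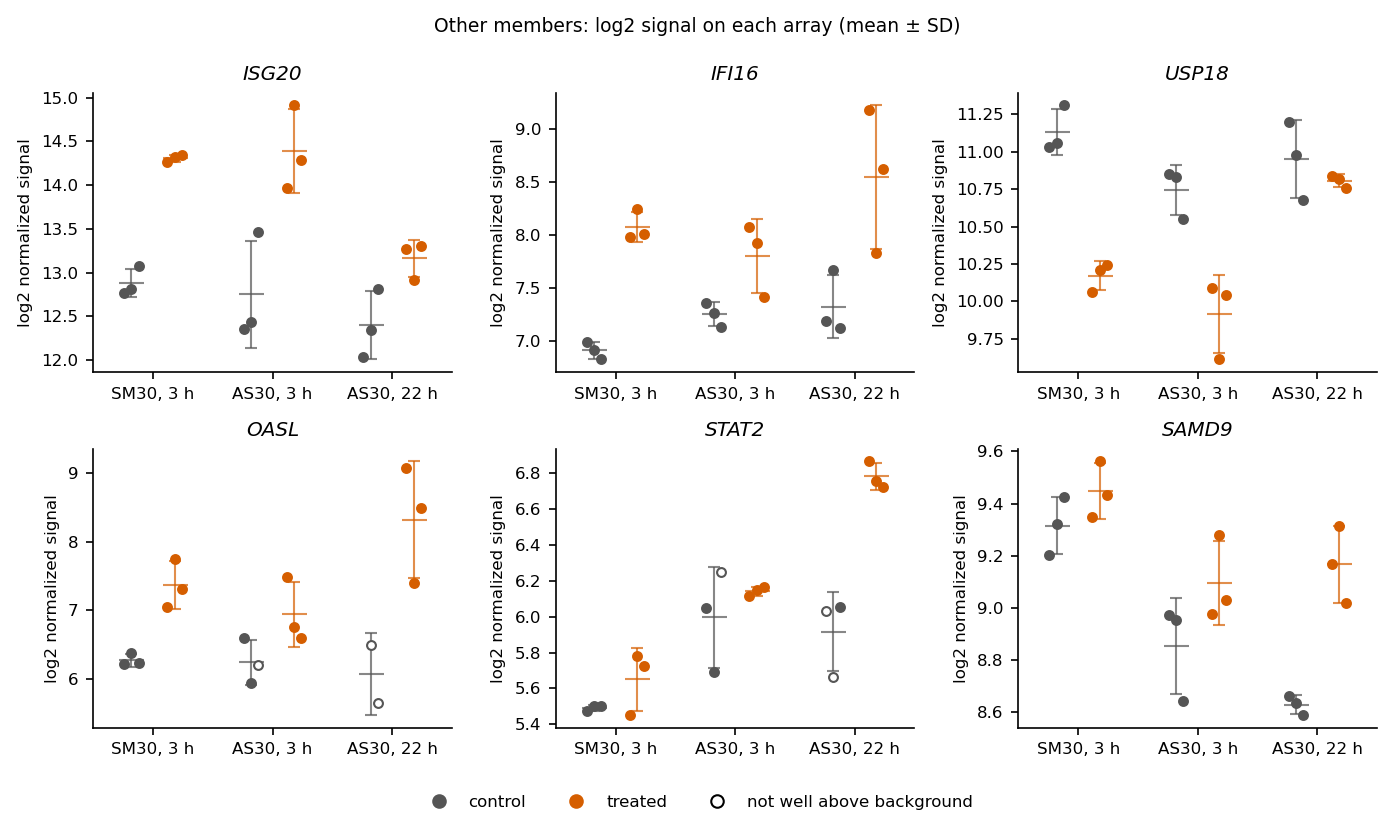
Log2 normalized signal (y axis) of ISG20, IFI16, USP18, OASL, STAT2 and SAMD9 on each array, by exposure (x axis), drawn as for the IFIT family with bars for the mean ± SD. ISG20 stood at 14.26 to 14.34 in the treated SM30 arrays, above controls of 12.77 to 13.07, and USP18 stood below its controls in both 3 h exposures.

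At 3 h after AS30 the called members were ISG20, higher, and USP18, lower. The background was 1.50% of probes called higher and 1.01% called lower, and since the list was chosen with AS30 results known nothing is read from these counts. The median log2 ratio over the 34 members was 0.11, beside 0.01 over all probes. All pairs were higher in 11 of 29 members with 3 ratios (24.0% of probes) and lower in 5 (20.0% of probes). After ISG20, the highest ratios among members well above background on all 6 arrays were those of ISG15 (0.43, 0.05 and 1.40) and IFI16. The lowest, beside IFIT1 and USP18, was that of EIF2AK2, with -0.42, -0.65 and -0.09. The ISG15 pairs differed widely, with replicate C far above the others. Control C had 52.4% of its spots well above background, beside 61.7% and 61.9% in controls A and B. Without pair C the calls over all probes numbered 3060 of 28520. The part of control C in the ISG15 ratio was not tested. The chosen EIF2AK2 probe was lower in each pair, and a second one, well above background on all 18 arrays, gave -0.02 (SE 0.25).

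At 22 h after AS30 the members stood higher as a group. The median log2 ratio over the 34 members was 0.50, beside -0.0047 over 28155 probes, and 29 of the 34 ratios were above 0 (85.3%), beside 49.5% of all probes. Pair by pair the median of the members was 0.61 for A, 0.22 for B and 0.49 for C. The called members were IFIT1, IFIT2, IFIT3, OASL, MX2, STAT2, SAMD9 and GBP2, all higher and 8 of 34 (23.5%), beside 2.54% of all probes called higher and 1.04% called lower, and none of the 34 was called lower. All pairs were higher in 18 of 30 members with 3 ratios (22.7% of probes) and lower in 1 (21.4% of probes), which was OAS3. These shares use the contrast that chose the list and are given as a description only. Among the 24 members well above background on all 6 arrays the median was 0.41, beside -0.0095 over all probes that bright. Of these members 3 were called, and the share called among all probes that bright was not computed. Without pair A or without pair C of the 22 h arrays 0 members were called higher in the limma fit, with 13 and 15 at an unadjusted p under 0.05, and the calls over all probes then numbered 2 of 27942 and 184 of 26899. At an unadjusted p under 0.05 stood 22.9% of all probes, in either direction, with all pairs in the fit. That share was not computed for the other fits, so their unadjusted counts have no background beside them. Leaving out any SM30 pair left 1 to 3 members called, beside 0.643% to 1.33% of all probes in either direction. With normexp background correction the median was 0.21 and 3 members were called, with outlier spots kept 4, and with slide as a fixed block 0 of 28 (limma, 9 at an unadjusted p under 0.05). Of all probes, 4.04%, 3.23% and 0.0261% were then called in either direction. On the slide that held all treated 22 h samples and control C, the median difference was 0.45, with 27 of 33 members above 0, and the values were 1.68 for IFIT1, 2.09 for IFIT2, 2.34 for IFIT3, 2.68 for OASL and 0.73 for STAT2. All these differences share the single control array, and no median over all probes was computed for this slide.

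OASL was at 9.08, 7.40 and 8.49 after AS30 at 22 h, beside 6.49 and 5.64 in controls B and C, and control A had no valid spot, so that only B and C gave ratios, of 0.91 and 2.85. No 22 h control was well above background, and the bound described for IFIT3 came to 4.42-fold, or 2.145 on the log2 scale. It compares group means with control A included, and lies above the mean ratio of 1.88 from pairs B and C. It is therefore no lower limit for the change in the pairs. At 3 h the OASL ratios were 0.89, 0.81 and 0.40, all above 0. MX2, a dynamin-like GTPase, was called on 1 ratio alone, that of replicate C (1.59), and was not well above background on any 22 h array, so no fold is given for it. It was measured in 2 of 3 pairs at 3 h after AS30, at 0.41 and 0.54.

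STAT2, a subunit of ISGF3, was at 6.87, 6.76 and 6.72 after AS30 at 22 h and at 6.03, 5.66 and 6.06 in the controls, of which 1 was well above background. Treated arrays all lay above the controls, and the mean ratio was 0.87 (SE 0.14). At 3 h they were 0.07, 0.46 and -0.09, and after SM30 -0.02, 0.28 and 0.22, so the 3 h values lay close to 0. SAMD9, a cytosolic restriction factor, was at 9.17, 9.32 and 9.02 at 22 h, beside 8.66, 8.64 and 8.59. Its mean ratio of 0.54 (SE 0.12) was the smallest of the called members. Among its other probes, one gave 0.84 (SE 0.18), one 0.70 (SE 0.25) and the dimmest 0.19 (SE 1.62). GBP2 was at 6.66, 6.30 and 6.66, beside 5.85, 5.84 and 5.33 in controls that were not well above background, and at least 1.41-fold higher by the same bound.

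Several members that were not called stood above their controls in all 3 pairs at 22 h. They included IFIH1, the RNA sensor MDA5, which was well above background on no control and on 2 of 3 treated arrays, and was at least 1.08-fold higher by the bound described for IFIT3. IFI35 had ratios of 1.03, 0.24 and 0.57. HERC6 and its relative HERC5, the main ligase for ISG15 in human cells, had 0.91, 0.41 and 0.50, and 0.75, 0.21 and 0.63. In each of these genes replicate B was the lowest. ISG15 itself had 0.03, 0.50 and 1.04, and there replicate A was the lowest. The lowest mean ratios among members well above background on all 6 arrays were those of OAS3, with -0.46, -0.36 and -0.11, IFITM2, with 0.05, -0.48 and -0.01, and USP18, given above.

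By role, the medians at 22 h ran from the IFIT genes down to the membrane effectors. At 22 h after AS30 the median log2 ratio was 1.72 over the 4 IFIT genes, 0.81 over 4 GTPases (MX1, GBP1, GBP2 and the single ratio of MX2), 0.64 over 4 sensors (IFI16, IFIH1, DDX58, EIF2AK2), 0.64 over 4 nucleotide and RNA enzymes (ISG20, OAS1, OAS3, OASL) and 0.52 over 4 genes of the ISG15 system. It was 0.52 over the effectors IFI6, IFI27, IFI35 and SAMD9, 0.41 over the transcription factors STAT2, IRF1 and IRF7, and 0.42 for TRIM21. It was 0.11 over the antigen processing genes TAP1 (a peptide transporter), PSMB9 (an immunoproteasome subunit) and IFI30 (a lysosomal reductase), and -0.15 over the membrane effectors BST2, IFITM2 and IFITM3. After SM30 the same medians were 0.20 for the IFIT genes, 0.19 for the GTPases, 0.51 for the sensors, 0.60 for the enzymes, 0.61 for the transcription factors, -0.05 for the effectors, 0.40 for TRIM21, -0.16 for the ISG15 system, -0.13 for antigen processing and -0.25 for the membrane effectors. BST2 gave 1 ratio after SM30 and 2 in each AS30 exposure, and was well above background on few arrays.

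**Figure D3:**
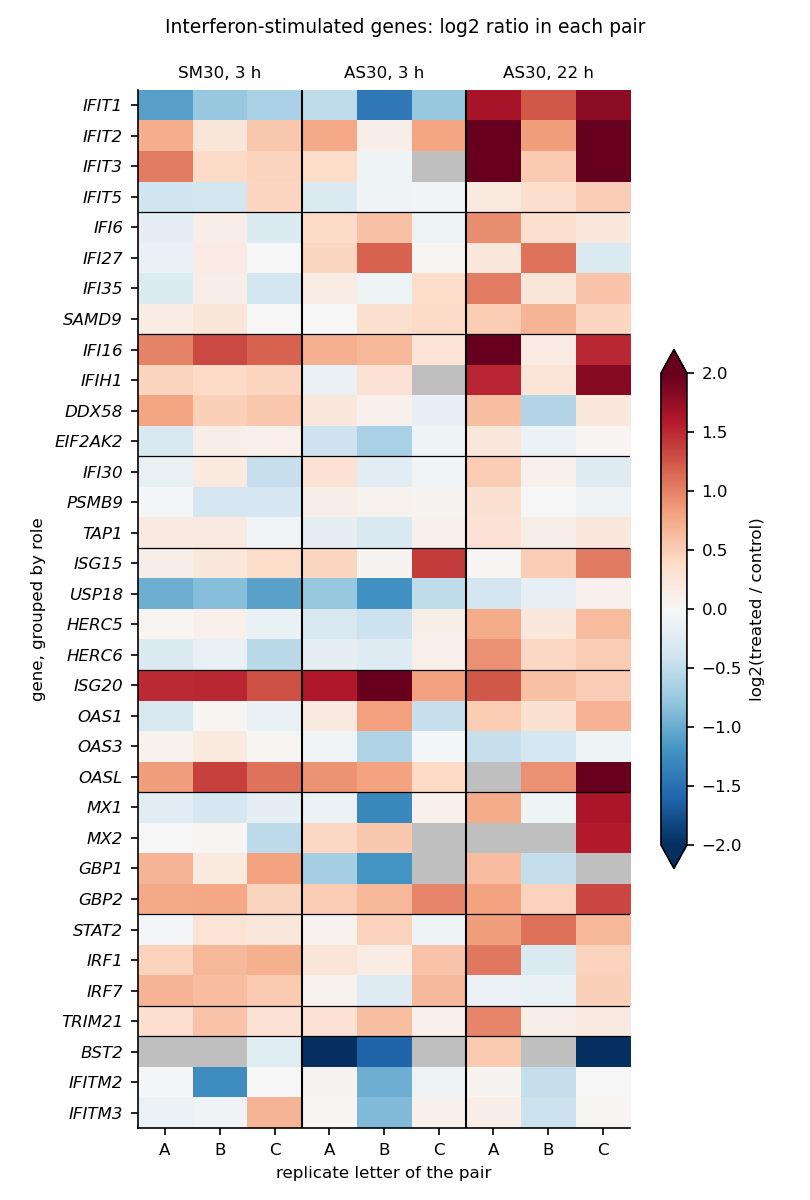
Log2 ratio of treated over control (colour, red higher and blue lower, limited at -2 and 2) for each of the 34 measured members (rows, grouped by role) in each pair A, B and C of each exposure (columns), with grey where a pair gave no ratio. At 22 h no ratio in column B exceeds 1.24, IFIT1, IFIT2, IFIT3, IFI16 and IFIH1 stand higher than that in both A and C, and IFIT1 is blue in all 6 pairs at 3 h.

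The AS30 response at 22 h was compared with that at 3 h. IFIT1 was the single member called, higher at 22 h by 2.46 on the log2 scale (SE 0.27), where 0.0142% of all probes were called higher and 0.0142% lower. As this difference helped to choose the list, nothing is read from that call. IFIT2, with 2 of 3 controls well above background at 3 h, differed by 1.43 (SE 0.45), and ISG20 by -0.87 (SE 0.39). IFIT3 and OASL had no 22 h control well above background, so no size is given for them. The difference was above 0 in 28 of 34 members, with a median of 0.39, beside 0.01 over all probes. Among the genes of the ISG15 system, USP18 differed by 0.69 (SE 0.21), HERC5 by 0.74 (SE 0.21), HERC6 by 0.72 (SE 0.20) and ISG15 by -0.11 (SE 0.37). The USP18 level at 22 h minus that at 3 h was 0.21 in controls and 0.90 in treated cells, and for ISG20 it was -0.35 and -1.22. The treated arrays of the 2 times lay on different slides, and of the 22 h controls only A shared a slide with the 3 h controls.

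**Figure D4:**
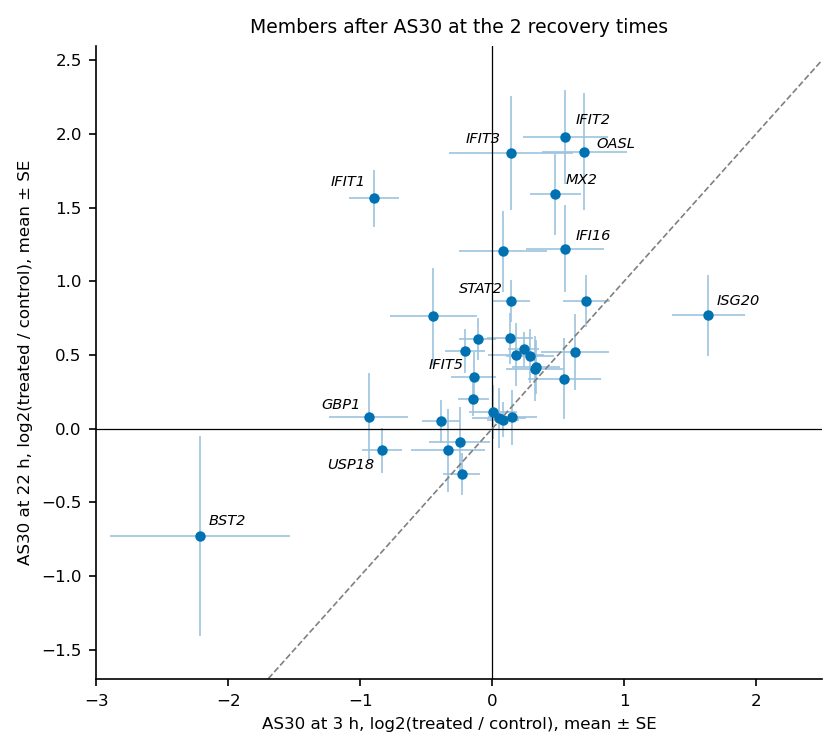
Mean log2 ratio ± SE after AS30 at 22 h (y axis) against that at 3 h (x axis) for the 34 measured members, each a point, with equal values on the dashed line. The SE is that of the fit over all exposures. Most points lie above the line, IFIT1 lies farthest from it at -0.90 and 1.56, and ISG20 lies below the line at 1.64 and 0.77.

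The genes upstream of the members were taken from lists of ligands, receptors, signalling and induction genes and inhibitors. Of 15 interferon genes with a probe, 8 were nowhere well above background and 2 were measured. IFNB1, an early type I interferon, was well above background on 1 array (SM30 treated B, 4.12) and had too few valid spots for a ratio. IFNE1 (interferon epsilon, constitutive in some epithelia) was at 7.00, 7.14 and 7.11 in SM30 controls and at 8.35, 8.37 and 8.51 after SM30. The groups did not overlap, and IFNE1 rose by 1.33 (SE 0.30, limma, adjusted p = 0.0335). After AS30 its ratios were 0.59, 0.88 and 1.46 at 3 h and 0.93, -0.72 and 0.72 at 22 h. IL28A, a type III interferon, had -0.50 (SE 0.24) after SM30 (limma, adjusted p = 0.233), and 0.43 (SE 0.24) and -0.34 (SE 0.24) after AS30 at 3 h and 22 h.

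These lists, too, were chosen with earlier results of the arrays known. Of 6 receptor genes 3 rose after SM30, beside 4.35% of all probes, and none fell. IL28RA, the chain that is specific to type III interferons, rose by 1.59 (SE 0.20, limma, adjusted p = 0.00486). IFNGR2, a chain of the type II receptor, rose by 0.96 (SE 0.13, adjusted p = 0.00631), and IFNAR1, a chain of the type I receptor, by 0.43 (SE 0.09, adjusted p = 0.0324). All 6 receptor genes, called or not, were higher in each SM30 pair, beside 24.4% of all probes. After AS30 at 3 h the ratios of IL28RA, IFNGR2 and IFNAR1 were 1.63 (SE 0.20), 0.71 (SE 0.13) and 0.33 (SE 0.09). IFNAR2 was at 1.26 (SE 0.34), IFNGR1 at 0.05 and IL10RB at -0.05. Of the 6 receptor genes 2 were called higher there, beside 1.50% of all probes. At 22 h IL28RA, IFNGR2, IFNAR1 and IFNAR2 were at 0.75, 0.41, -0.05 and 0.11, and none of the 6 was called.

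Of 7 measured signalling genes (JAK1, JAK2, TYK2, STAT3, IRF2, IRF3 and IRF5) none was called in any exposure (limma), and at an unadjusted p under 0.05 there were 2 after SM30, 1 after AS30 at 3 h and 2 at 22 h, all higher, beside 25.1%, 24.4% and 22.9% of all probes in either direction. IRF2, which can repress genes that IRF1 activates, had ratios of 0.51, 0.64 and 0.55 after SM30 (limma, adjusted p = 0.0533), 0.65, 0.31 and 0.82 after AS30 at 3 h, and 0.02, 0.63 and 0.40 at 22 h. All 9 lay above 0, as did those of IRF5, IL28RA and IFNGR2. None of 7 measured induction genes, such as TBK1, TICAM1 and TMEM173 (the gene of STING), and none of 8 inhibitors, such as SOCS1 and SOCS3, was called in any exposure (limma), and at an unadjusted p under 0.05 there were 2 induction genes in each exposure, all higher, and 4 inhibitors, 1 higher and 3 lower, after SM30 alone, which is to be read against the same shares of all probes. Their median log2 ratios were 0.29 and -0.16 after SM30, 0.12 and -0.0020 after AS30 at 3 h, and 0.23 and 0.03 at 22 h. IRF9 was outside the list's probes because the files name it by its older symbol ISGF3G. The brighter of its probes, well above background on all 18 arrays, rose by 0.78 after SM30 (SE 0.15, limma, adjusted p = 0.0196) and had 0.72 (SE 0.15) and 0.52 (SE 0.15) after AS30 at 3 h and 22 h. A dimmer probe, well above background on 8 arrays, gave 1.86, -0.12 and 0.05, so the probes differ after AS30. This gene was looked up after the values of the members had been seen.

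**Figure D5:**
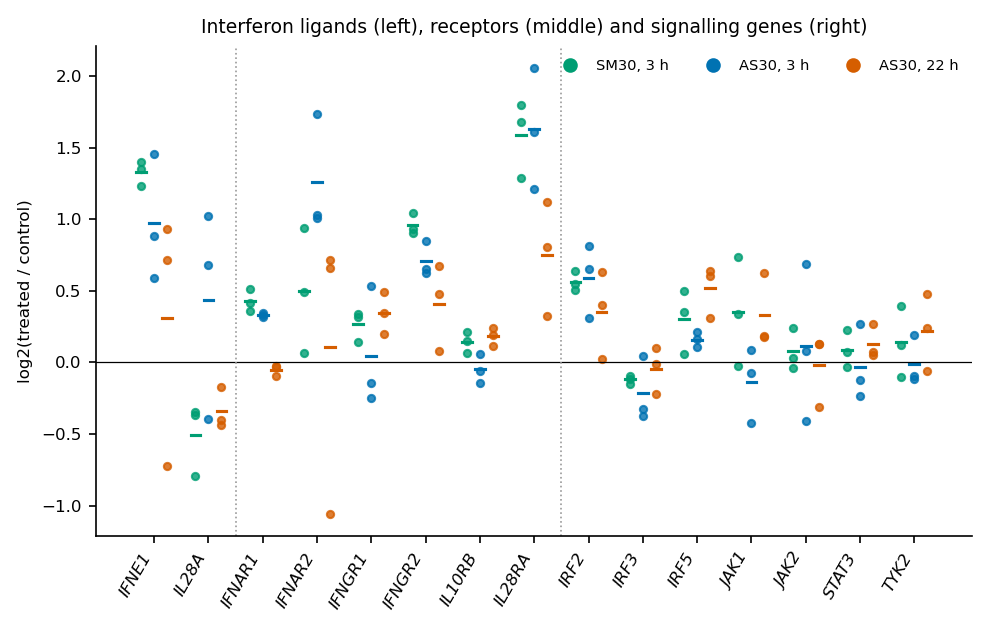
Log2 ratio of treated over control (y axis) in each pair (points, with the mean as a bar) for the measured interferon ligands, receptors and receptor signalling genes (x axis), by exposure (colour). IFNE1, IFNAR1, IFNAR2, IFNGR2, IL28RA, IRF2 and IRF5 stood above 0 in all pairs of both 3 h exposures. IFNGR2, IL28RA, IRF2 and IRF5 stood above 0 in all 9 pairs.

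The 8 members with a probe but without a measured level were IFI44, IFI44L, OAS2, RSAD2, XAF1, TRIM22, EPSTI1 and IFITM1. IFI44 was well above background on 5 of 6 SM30 arrays and IFITM1 on all 6, but both had too many missing spots over the 18 arrays. OAS2 was well above background on 1 array, TRIM22 on 1 and RSAD2, which encodes the antiviral enzyme viperin, on 2 arrays at 22 h, a control and a treated one. IFI44L, XAF1 and EPSTI1 were not well above background on any array, so neither a level nor a change can be given for them.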

How the data were processed

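RNA of 18 A549 samples had been labelled with Cy3 and hybridised to one-colour Agilent whole human genome arrays. The authors deposited 1 scanner file per array, made with Agilent Feature Extraction 10.5.1.1 and not normalized between arrays. Each file gives a linear intensity and quality flags for each spot. They also deposited a table of quantile normalized intensities, which was put on the log2 scale and used only as an alternative. The number of arrays limits the precision.

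Following the methods of the study, control spots were dropped, the log2 intensity was quantile normalized over the 18 arrays, spots not flagged as positive and significant were set to missing, replicate spots were averaged, and probes with more than 33% missing values were removed, which left 28665 of 41000. Spots flagged as outliers were also left out, a step that the study's methods do not name. Treated over control ratios were taken between arrays of the same letter, and the 9 ratios were fitted in limma 3.58.1 (R 4.3.3) as 3 classes with 6 residual degrees of freedom. P-values were adjusted by Benjamini and Hochberg over all probes, and calls were made at 0.05. A gene with several probes was represented by the one with the highest mean signal on its RefSeq chromosome. The fit was tested on simulated data with known changes.

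Arrays were paired by letter because the methods divide by the corresponding control, though nothing ties a letter to a day or culture. The deviations of samples with the same letter from their group means correlated at -0.09 to 0.48 over 23030 probes, and at -0.013 to 0.088 for the SM30 pairs. The main alternatives were another scaling, background correction, spot filters, the deposited values, slide as a block, no pairing and leaving out each pair, 19 in all, with 1 added after the data had been seen. The members and the lists of ligands, receptors, signalling genes, induction genes, inhibitors and markers were chosen with earlier results of these data known, and a signalling gene and a marker are not reported here. Genes described by array or pair were IFIT1, IFIT2, IFIT3 and IFIT5, every member past the threshold in a comparison, and in each exposure the 3 highest and 3 lowest members by mean ratio among those well above background on all 6 arrays. Promoter sequences came from RefSeq (GRCh38.p14).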

Additional observations from a re-analysis of the deposited data

Results flagged for a closer look

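The AS30 response of IFIT1 differed between 22 h and 3 h by 2.46 on the log2 scale in the limma fit of the difference itself, with 3 of 3 pairs lower at 3 h and 3 of 3 higher at 22 h. This difference was among the results by which the genes were chosen. IFIT5 also lay below its controls in every AS30 pair at 3 h and above them in every pair at 22 h, a difference of 0.49 that did not pass the threshold of the same fit, and its second probe gave 0.034. OAS3 was higher in every SM30 pair and lower in every AS30 pair at 3 h, with SM30 minus AS30 at 0.32, and PSMB9 went the opposite way, at -0.31. Neither of these passed the threshold in the limma fit of the difference. Of all probes 24.4% were higher and 32.8% lower in all SM30 pairs. For AS30 these shares were 24.0% and 20.0% at 3 h, and 22.7% and 21.4% at 22 h. The share of probes that change sign between 2 exposures in this way was not computed, so nothing is read from these patterns.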

How the results depend on the processing

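No called member changed direction in the alternatives that gave it a value (16 to 19 of 19), but the counts of calls were not stable (limma throughout). After SM30, beside 2 higher and 2 lower, the count of higher members was 1 with all spots kept, 1 with outlier spots kept, 1 in the deposited values, 0 with slide as a fixed block (3 at an unadjusted p under 0.05) and 4 with slide as a random block. The count of lower members was 1 with normexp correction, with all spots kept, without the replicate block and with slide as either kind of block. Of all probes, 3.15% were then called in either direction with all spots kept, 7.13% with outlier spots kept and 6.75% in the deposited values. That share was 7.94% with normexp correction, 8.78% without the replicate block, 1.4% with slide fixed and 10.7% with slide random. For AS30 at 3 h, beside 1 higher and 1 lower, higher members numbered 0 with all spots kept or slide fixed, and 2 without the replicate block or with slide random. Lower members numbered 0 with all spots kept or slide fixed, 2 with 75th percentile scaling or with probes well above background on all arrays, and 5 with slide random. Of all probes, 0.668% were then called in either direction with all spots kept, 0.122% with slide fixed and 13.8% with slide random. That share was 4.59% without the replicate block, 2.4% with 75th percentile scaling and 4.6% with probes well above background. For AS30 at 22 h, beside 8 higher, there were 3 with normexp correction, 4 with all spots kept, with outlier spots kept or with probes well above background on all arrays, 5 in the deposited values, and 0 with slide fixed (28 members testable, 9 of them higher at an unadjusted p under 0.05). That count was 11 without the replicate block and 12 with slide random, and for SM30 3 members were called higher without the replicate block. Of all probes, 4.04% were called in either direction at 22 h with normexp correction, 1.24% with all spots kept and 3.23% with outlier spots kept. That share was 5.99% with probes well above background and 3.13% in the deposited values. It was 0.0261% with slide fixed, 4.99% without the replicate block and 6.84% with slide random. Shares of all probes at an unadjusted p were not computed for these settings. For the difference between 22 h and 3 h, beside 1 higher, there were 0 with 75th percentile scaling, all spots kept, the deposited values or slide fixed. In these settings 0.0261% of all probes or fewer were called. The median of the members after SM30 (0.10) was 0.00081 over probes well above background, -0.065 with slide fixed and -0.041 on 1 slide, the last chosen after seeing the data. That for AS30 at 3 h (0.11) was 0.045 with normexp correction, 0.050 over probes well above background and -0.11 with slide fixed. That for AS30 at 22 h (0.50) was 0.21 with normexp correction, and that of the difference (0.39) was 0.17 with normexp correction and 0.20 over probes well above background. When each pair was left out in turn, members called higher ranged from 0 to 5 for SM30, 0 to 1 for AS30 at 3 h, 0 to 8 at 22 h and 0 to 3 for the difference, and members called lower from 0 to 2, 0 to 2, 0 to 0 and 0 to 0. The medians then ranged from 0.05 to 0.13, 0.08 to 0.11, 0.41 to 0.59 and 0.29 to 0.49. The shares of all probes called in either direction ranged from 1.01% to 9.49%, 0.285% to 10.7%, 0.00716% to 4.84% and 0% to 0.9%. Of 19 alternatives, the SM30 call was kept in 9 for IFIT1, 6 for IFI16, 15 for ISG20 and 16 for USP18. The cause of these changes was not tested, apart from the smaller number of samples or probes that some alternatives hold. Signal over background limits the dim members, above all in the 22 h controls.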
